A study of Homo sapiens with 12 samples.

Results

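The genes described here are zinc finger genes of the long arm of chromosome 19, from 19q13.1 to 19q13.3, read in 4 lines made from HEK293T, a cell line derived from human embryonic kidney. They were taken by symbol from a list of 50, with no measured value in the rule, although the list was drawn up with earlier results of these data known. Of the 50, 49 were found among the 14438 genes of the count table. ZNF781 was not analysed here. All 49 lie on chromosome 19, and the protein of each holds between 6 and 29 zinc fingers of the C2H2 kind (median 14), counted as matches to its pattern of cysteines and histidines.

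The lines had been infected with lentivirus carrying EZH2 WT, one of the gain-of-function (GOF) mutants EZH2 Y641F and EZH2 A677G, or the loss-of-function (LOF) double mutant EZH2 H689A/F667I, and selected with blasticidin. RNA was sequenced from 3 samples of each, 12 in all, and the authors describe the selected populations as monoclonal, so a line may stand for 1 clone and a difference between lines cannot be told apart from a difference between clones. Each line kept its own EZH2 gene, and all 4 carry introduced EZH2, the WT line included. The samples of a line are described as biological replicates, but not whether they came from separate cultures, so p-values measure the spread between these samples only. Values are CPM, counts scaled to a common library size, after TMM scaling, and fold changes and adjusted p-values come from edgeR's quasi-likelihood test over 14263 genes with Benjamini-Hochberg adjustment, with 0.05 as the threshold.

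EZH2 itself stood at 157, 163 and 154 CPM in WT, at 228, 209 and 217 CPM in Y641F, at 174, 165 and 182 CPM in A677G and at 208, 210 and 206 CPM in H689A/F667I. Introduced and endogenous transcript are counted together in these values. No EZH2 value of a mutant line fell below the highest WT value. Of the markers of HEK293T, VIM was at 244 to 272 CPM, NEFM at 81.2 to 192, KRT18 at 29.8 to 39.3, INA at 13.4 to 18.6 and KRT8 at 3.37 to 5.35, while PAX2 was listed at 0 in all 3 A677G samples and at 12 to 25 counts in the other 9. Of the markers of other cells, PTPRC, MS4A1, CD3E, PECAM1 and ALB were not analysed here. Replicate 1 of Y641F stood apart from the other Y641F samples on the first principal component of all genes (5.60 against 17.7 and 17.1), and the counts, medians and sums that it moved are also given without it.

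Most zinc finger genes of chromosome 19 arose by tandem duplication, and many encode a KRAB domain in front of an array of C2H2 fingers. The fingers bind DNA, largely in transposable elements, and KRAB recruits the corepressor TRIM28, which brings the histone H3 lysine 9 methyltransferase SETDB1 and HP1 proteins. EZH2 is the catalytic subunit of Polycomb repressive complex 2 (PRC2), which places the repressive mark H3K27me3, mostly at promoters rich in CG dinucleotides. The comparisons below ask whether RNA of these genes differed between lines that carry EZH2 with more or with less activity.

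Promoters are shown for the members that passed the threshold in a comparison, because CG content is a promoter feature that bears on PRC2. Of the 5 such members, 4 had a promoter in the RefSeq table (build GRCh38.p14), and ZNF155 had none there. Each sequence runs 5′ to 3′ on the gene's strand, from 250 bases before to 50 bases after the start in that table. Every CG is in capitals. The gene spans given below come from the GENCODE v44 annotation and need not begin at the same base. By those spans the windows of ZNF607 and ZNF382 lie inside the gene, and those of ZNF793 and ZNF260 hold its first base. ZNF793 lies at chr19:37506689-37506988 on the plus strand, ZNF607 at chr19:37719139-37719438 on the minus strand, ZNF260 at chr19:36528222-36528521 on the minus strand and ZNF382 at chr19:36605063-36605362 on the plus strand.
ZNF793: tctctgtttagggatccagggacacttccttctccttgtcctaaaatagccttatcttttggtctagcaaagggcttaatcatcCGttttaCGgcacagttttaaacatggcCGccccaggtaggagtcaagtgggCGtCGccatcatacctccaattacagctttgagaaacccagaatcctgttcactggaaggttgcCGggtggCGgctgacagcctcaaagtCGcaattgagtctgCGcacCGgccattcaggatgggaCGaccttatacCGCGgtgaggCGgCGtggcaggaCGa
ZNF607: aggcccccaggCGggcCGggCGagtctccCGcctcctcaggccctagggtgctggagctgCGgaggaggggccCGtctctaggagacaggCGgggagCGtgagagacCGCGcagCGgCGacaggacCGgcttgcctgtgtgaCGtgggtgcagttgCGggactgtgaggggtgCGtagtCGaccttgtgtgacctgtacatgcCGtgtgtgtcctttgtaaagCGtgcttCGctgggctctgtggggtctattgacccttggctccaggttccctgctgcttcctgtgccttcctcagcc
ZNF260: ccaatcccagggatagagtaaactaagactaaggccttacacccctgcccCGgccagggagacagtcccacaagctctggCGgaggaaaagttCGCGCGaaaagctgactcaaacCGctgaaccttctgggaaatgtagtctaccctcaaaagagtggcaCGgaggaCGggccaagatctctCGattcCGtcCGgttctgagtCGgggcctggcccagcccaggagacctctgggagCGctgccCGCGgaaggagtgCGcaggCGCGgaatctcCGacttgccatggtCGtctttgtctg
ZNF382: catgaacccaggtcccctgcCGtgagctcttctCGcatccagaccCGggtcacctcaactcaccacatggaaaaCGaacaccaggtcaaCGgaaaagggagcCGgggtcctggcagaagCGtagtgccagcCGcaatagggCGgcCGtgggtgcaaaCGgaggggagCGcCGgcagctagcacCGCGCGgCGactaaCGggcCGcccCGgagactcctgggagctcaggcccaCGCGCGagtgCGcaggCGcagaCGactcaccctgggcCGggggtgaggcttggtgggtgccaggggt

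These windows held 16 CG dinucleotides in ZNF793, 20 in ZNF607, 20 in ZNF260 and 27 in ZNF382. Over the 43 members with a promoter in the table, the number ran from 2 in ZNF404 to 32 in ZNF565, with a median of 20. The windows of both ZNF404 and ZNF565 lie inside the annotated gene span, away from its first base. The median was 26 over 10435 tested genes and 27 over 464 of the 633 genes that passed the threshold as lower in both GOF lines. The letters CCGGAA, the core of an ETS site, stood on either strand in 19 of the 43 windows (44.2%), against 28.9% of the tested genes and 17.6% of all 27305 promoters of the table. GGGCGG, a GC box, stood in 16 (37.2%), against 70.6% of tested genes and 44.6% of all promoters. TATAAA stood in none of the 43, against 5.27% and 12%. ATGGCGG, the core of a YY1 site, stood in 2 (4.65%), against 10.0% and 5.72%. These are matches of letters in windows of 300 bases.

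By position, the members form 3 groups separated by over 1000000 bases (GRCh38). The first holds 5 members, from ZNF302 to ZNF792, in the 287 kb of chr19:34677639-34964229. The second holds 24, from ZNF565 to ZNF573, in the 1635 kb of chr19:36182276-37817300. The third holds 20, from ZNF283 to ZNF180, in the 673 kb of chr19:43827321-44500524. The first and second fall in 19q13.1 and the third in 19q13.3, and no member lies between the second and the third. On strand, 27 members lie on plus and 22 on minus. Their canonical transcripts had a median GC content of 40.5% (35.9% to 51.4%), and 48 of 49 were under the median of all tested genes, 48.4%.

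Levels between genes are given per kb of canonical transcript. ZNF146, or OZF, a protein made almost wholly of fingers with no KRAB domain, was highest at 65.4 CPM per kb, followed by ZNF302 at 11.5 and ZNF227 at 7.56. ZNF229 was lowest at 0.195 CPM per kb, then ZNF285 at 0.217 and ZNF224, described as a repressor of the aldolase A gene, at 0.504. The median member was at 1.86 CPM per kb. ZNF146 alone made up 31.2% of the members' summed CPM.

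**Figure D1:**
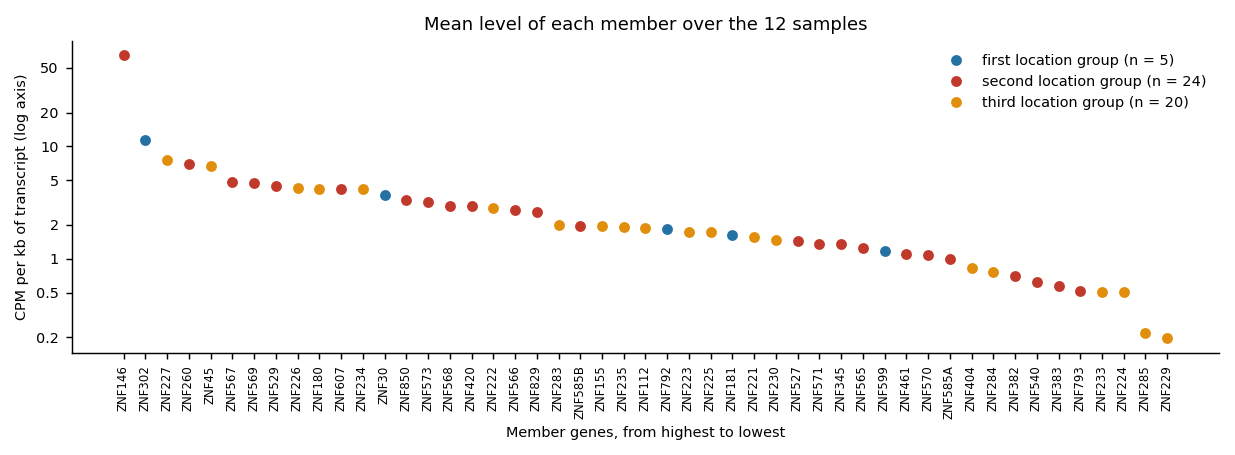
Mean level of each of the 49 members over the 12 samples, in CPM per kb of canonical transcript on a log axis, from highest to lowest, coloured by location group. ZNF146 stands apart at 65.4, and ZNF285 and ZNF229 are the lowest at 0.217 and 0.195.

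No member was at 0 in any sample. The lowest count of any member was 24, in ZNF285 and ZNF229. ZNF146 was at 212, 215 and 219 CPM in WT, at 197, 227 and 230 in Y641F, at 218, 232 and 223 in A677G and at 220, 215 and 216 in H689A/F667I. Its lowest value was that of Y641F replicate 1, and the ranges of all 4 lines overlapped. At the other end, ZNF229 was between 0.568 and 1.54 CPM, with its lowest value in Y641F replicate 3 and its highest in A677G replicate 3. The median coefficient of variation between replicates over the members was 8.32%.

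With 0.05 as the threshold, 5 of the 49 members (10.2%) passed in at least 1 of 5 comparisons, beside 16.4% of all tested genes, and 44 passed in none. The fold changes of the 5 were under 1 log2 unit. The comparisons of Y641F, A677G and H689A/F667I with WT share the same 3 WT samples, so their values are given side by side.

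**Figure D2:**
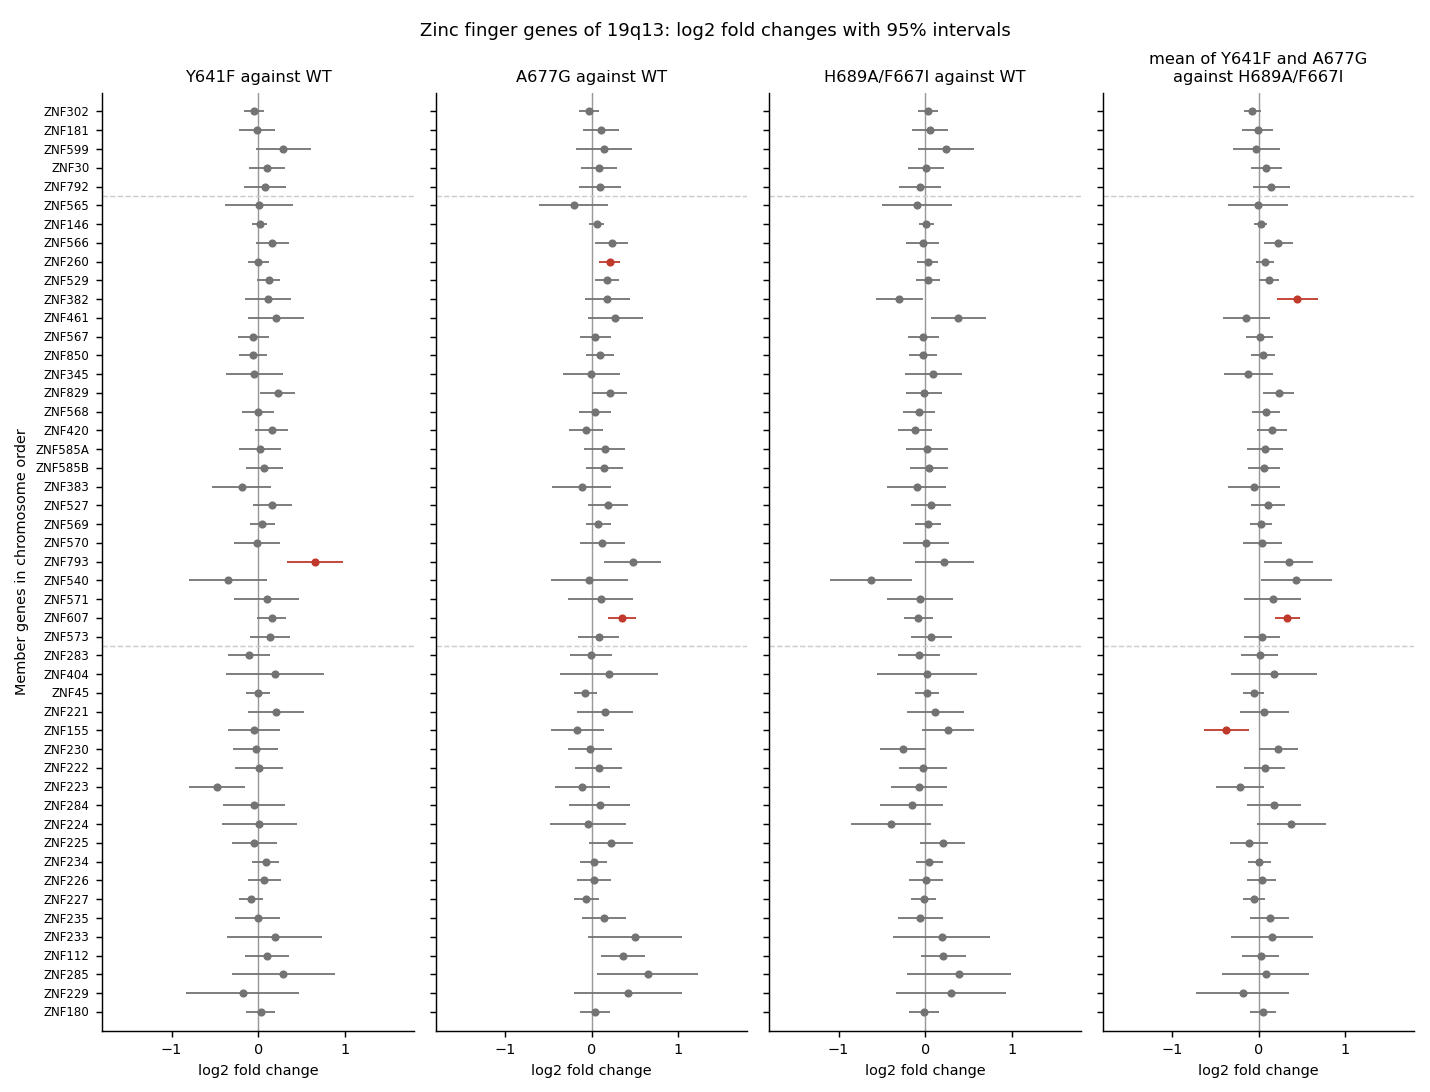
Log2 fold change of each member with its 95% interval in 4 comparisons, in chromosome order from top to bottom; dashed lines part the 3 location groups, and red marks adjusted p under 0.05. ZNF793 is red for Y641F against WT, ZNF260 and ZNF607 for A677G against WT, ZNF382, ZNF607 and ZNF155 for the mean of Y641F and A677G against H689A/F667I, and no member for H689A/F667I against WT.

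In Y641F against WT, 1 of 49 members was higher and 0 were lower, beside 2.09% of all tested genes higher and 5.59% lower. By edgeR's exact test 1 member was lower, and by DESeq2 and limma 0 were. At an unadjusted p under 0.05 there were 3 members (6.12%), beside 19.2% of all tested genes. The median log2 fold change of the members was 0.02, with 30 of 49 above 0, against 0.00 over all tested genes. Single members ran from -0.48 to 0.66. The 95% interval lay within 1 log2 unit of 0 for all 49 members and within 0.5 for 38.

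The member that passed was ZNF793 (chr19:37506939-37548762), a protein of 406 residues with 6 fingers. It stood at 3.25, 2.67 and 2.56 CPM in WT, at 4.33, 5.02 and 4.09 in Y641F, at 3.52, 3.86 and 4.47 in A677G and at 3.41, 3.18 and 3.32 in H689A/F667I. All Y641F values lay above all WT values and above those of H689A/F667I, and the A677G values were also above those of WT and H689A/F667I. The log2 fold change against WT was 0.66 (SE 0.16, a fold of 1.58, adjusted p = 0.00602) in Y641F, 0.48 (SE 0.162, adjusted p = 0.0614) in A677G and 0.22 (SE 0.167, adjusted p = 0.782) in H689A/F667I, by edgeR's quasi-likelihood test. Y641F and A677G did not differ at the threshold (0.18, 95% interval -0.13 to 0.49, adjusted p = 0.883). With edgeR's exact test and with DESeq2 the A677G value passed at adjusted p = 0.0302 and 0.0477. An antisense RNA, ZNF793-AS1, and the gene ENSG00000180458 overlap ZNF793 on the other strand. Whether the counting used strand is not given in the sources used here. Of the 50-base windows of the ZNF793 transcript, 3.16% occurred in another gene of the table, most often in KCNK6.

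ZNF223 was closest to the threshold on the lower side, and is named after its values were seen. It stood at 3.6, 5.31 and 4.86 CPM in WT, at 3.02, 3.62 and 3.26 in Y641F, at 3.90, 4.82 and 4.06 in A677G and at 3.79, 4.41 and 4.90 in H689A/F667I. Y641F replicate 2 was above the lowest WT value, so Y641F and WT overlapped. Its log2 fold change in Y641F was -0.48 (SE 0.161), with adjusted p = 0.0634 by the quasi-likelihood test, 0.0346 by edgeR's exact test and 0.0206 without WT replicate 1.

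Replicate 1 of Y641F bore on this comparison. Without it, 2 members were higher in Y641F than in WT and the members' median log2 fold change was 0.06 in place of 0.02. The member added was ZNF829, at 12.1, 11.4 and 13 CPM in WT and at 11.6, 15 and 15.9 in Y641F, replicate 1 being the lowest of these. Its log2 fold change was 0.22 (adjusted p = 0.189) with all samples and 0.35 (adjusted p = 0.0105) without that one. With any 1 sample left out, the members' median ran from 0.0028, without Y641F replicate 3, to the 0.0593 without replicate 1.

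In A677G against WT, 2 of 49 members were higher, beside 2.07% of all tested genes, and 0 were lower, beside 6.48%. The count of lower members was 0 by edgeR's exact test, DESeq2 and limma too, and 8 members (16.3%) had an unadjusted p under 0.05, beside 20.4% of all tested genes. The median log2 fold change of the members was 0.10, with 36 of 49 above 0, against 0.00 over all tested genes. Single members ran from -0.21 to 0.65. The intervals of 46 members lay within 1 log2 unit of 0 and those of 40 within 0.5.

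ZNF607 (chr19:37696371-37719761), with 18 fingers, stood at 18.1, 15.6 and 16.4 CPM in WT, at 18.8, 19.7 and 17.3 in Y641F, at 21.4, 21.6 and 20.8 in A677G and at 16.3, 17.1 and 13.9 in H689A/F667I. Each A677G value was above every value of the other 3 lines, and Y641F overlapped WT. Its log2 fold change against WT was 0.35 (SE 0.0809, a fold of 1.28, adjusted p = 0.00292) in A677G, 0.16 (SE 0.0816, adjusted p = 0.296) in Y641F and -0.08 (SE 0.0833, adjusted p = 0.861) in H689A/F667I. The direct comparison of Y641F with A677G gave -0.20 (95% interval -0.36 to -0.04, adjusted p = 0.639). The call held with each of the 12 samples left out in turn.

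ZNF260 (chr19:36510687-36528271), like ZNF146 an array of fingers with no KRAB domain, stood at 36.5, 36.0 and 33.4 CPM in WT, at 32.3, 35.0 and 38.6 in Y641F, at 41.1, 41.2 and 40.1 in A677G and at 34.7, 36.4 and 37.0 in H689A/F667I. The A677G values were above all others, by a narrow margin over Y641F replicate 3. Its log2 fold change in A677G was 0.21 (SE 0.0592, a fold of 1.16, adjusted p = 0.0192), against 0.00 in Y641F (adjusted p = 0.993) and 0.03 in H689A/F667I (adjusted p = 0.937). Y641F against A677G gave -0.21 (95% interval -0.33 to -0.09, adjusted p = 0.274). The call was lost without WT replicate 3 (adjusted p = 0.118), A677G replicate 1 (0.0728) or A677G replicate 2 (0.0717), so that 1 member was left as higher without either of those A677G samples.

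ZNF112, named after its values were seen, was the next member not yet described. It stood at 5.28, 5.80 and 7.03 CPM in WT and at 8.26, 7.81 and 7.10 in A677G, with no overlap. Its log2 fold change was 0.36 (SE 0.125) with adjusted p = 0.0657, and it passed under edgeR's exact test (0.0431) and limma (0.0150). By the exact test, and also without Y641F replicate 1, ZNF112 and ZNF793 were added and 4 members were higher in A677G.

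In H689A/F667I against WT, no member passed in either direction by edgeR's quasi-likelihood or exact test, DESeq2 or limma, beside 0.14% of all tested genes higher and 0.161% lower. At an unadjusted p under 0.05 there were 3 members (6.12%), beside 8.3% of all tested genes. The median log2 fold change was 0.01, with 27 of 49 above 0. The 95% interval lay within 1 log2 unit of 0 for 48 members and within 0.5 for 36. The lowest fold change was that of ZNF540, at -0.63 (adjusted p = 0.392), which stood at 2.16, 2.69 and 2.05 CPM in WT and at 1.14, 1.68 and 1.68 in H689A/F667I. The samples of these lines did not overlap for ZNF540, but its counts are low and its interval, -1.09 to -0.16, is wide.

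In Y641F against A677G, the direct comparison of the GOF lines, no member was higher, beside 0.0701% of all tested genes, or lower, beside 0.014%, by any of these tools. At an unadjusted p under 0.05 there were 6 members (12.2%), beside 6.91% of all tested genes. The median log2 fold change was -0.04, with 13 of 49 above 0, against 0.00 over all tested genes. Without Y641F replicate 3, ZNF260 passed as lower in Y641F (log2 fold change -0.28, adjusted p = 0.0447) and the median was -0.08. Without Y641F replicate 1 the median was -0.02, and no member passed.

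The mean of Y641F and A677G was also compared with H689A/F667I. WT samples carry no weight in this difference, but they entered the scaling and the shared estimate of spread, and so its p-values. Here 2 members were higher in the GOF lines, beside 3.81% of all tested genes, and 1 was lower, beside 8.75%. The median log2 fold change was 0.06, with 36 of 49 above 0, against 0.00 over all tested genes. With 1 sample left out it ran from 0.0321 without Y641F replicate 3 to 0.0899 without H689A/F667I replicate 3, and was 0.0405 without A677G replicate 2. All 49 intervals lay within 1 log2 unit of 0 and 40 within 0.5. The members closest to the threshold without passing, named after their values were seen, were ZNF566 at 0.23 (adjusted p = 0.0656) and ZNF829 at 0.23 (adjusted p = 0.0757). ZNF829 passed by limma (adjusted p = 0.0269) and without Y641F replicate 1 (0.29, adjusted p = 0.00567), and ZNF566 without Y641F replicate 2 (adjusted p = 0.0138) or A677G replicate 3 (0.0495). In each of these settings 3 members were higher.

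ZNF382 (chr19:36604817-36634114), a KRAB repressor with 9 fingers, stood at 6.03, 6.47 and 5.01 CPM in WT, at 6.28, 6.72 and 5.98 in Y641F, at 6.84, 7.30 and 5.73 in A677G and at 4.41, 4.76 and 5.12 in H689A/F667I. Every GOF value was above every H689A/F667I value, while the GOF lines and WT overlapped. The mean of the GOF lines was higher by 0.45 on the log2 scale (SE 0.117, a fold of 1.36, adjusted p = 0.00727). Against WT, ZNF382 was at -0.30 (SE 0.135, adjusted p = 0.527) in H689A/F667I, 0.11 (adjusted p = 0.712) in Y641F and 0.18 (adjusted p = 0.480) in A677G. Without H689A/F667I replicate 1 the adjusted p was 0.0655, and 1 member was then higher.

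ZNF607 passed here as well, with every GOF value above every H689A/F667I value (log2 fold change 0.33, SE 0.0716, adjusted p = 0.00101). ZNF155 (chr19:43967862-43998326), with 11 fingers, was the member that was lower. It stood at 4.44, 4.61 and 6.12 CPM in WT, at 4.56, 4.62 and 5.41 in Y641F, at 4.87, 4.77 and 3.81 in A677G and at 6.60, 5.17 and 6.42 in H689A/F667I. Replicate 2 of H689A/F667I lay under replicate 3 of Y641F, so the groups overlapped. The log2 fold change was -0.37 (SE 0.125, adjusted p = 0.0449). The call was lost with library totals (adjusted p = 0.0626), with limma (0.0828), and without WT replicate 2 (0.0528), Y641F replicate 1 (0.0575), Y641F replicate 2 (0.0738), A677G replicate 2 (0.0506), A677G replicate 3 (0.114), H689A/F667I replicate 1 (0.255) or H689A/F667I replicate 3 (0.180). A gene on the other strand, ZNF230-DT, overlaps ZNF155, as do 2 genes of the annotation on its own strand. ZNF607 is likewise overlapped by 2 genes on its own strand, and ZNF382 by ZNF529 on the other strand.

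**Figure D3:**
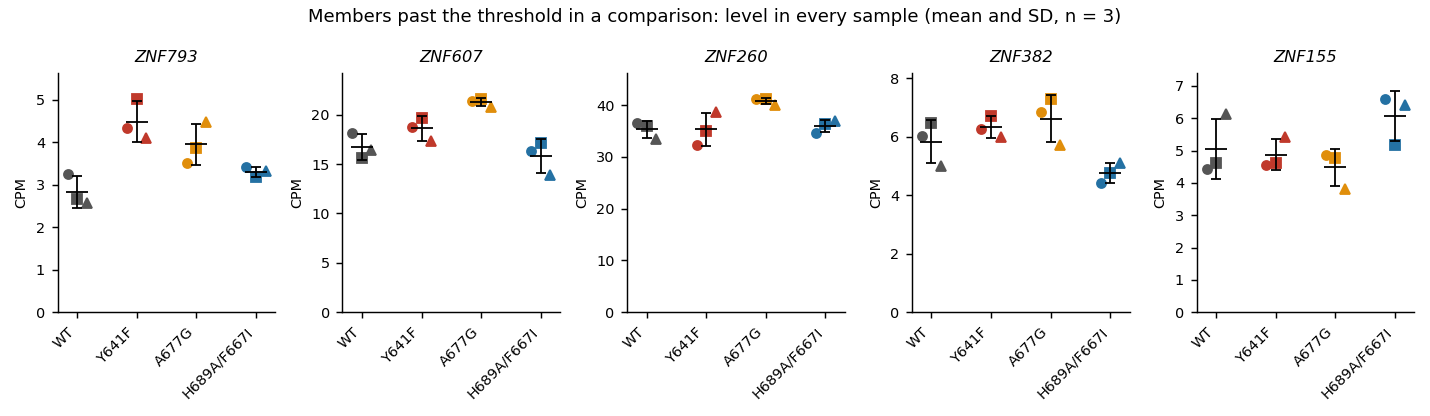
CPM of the 5 members that passed in a comparison, in every sample of the 4 lines (circle, square and triangle for replicates 1, 2 and 3), with mean and SD (n = 3) in black; axes start at 0. ZNF793 is higher in Y641F than in WT, ZNF607 and ZNF260 have all 3 A677G points above WT, ZNF382 has its lowest mean in H689A/F667I (4.76) and ZNF155 its highest there (6.07).

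Read together, the members took 0.0671% to 0.0745% of a sample's counts. Their summed CPM was 686.6 ± 9.6 (SD, n = 3) in WT, 701.2 ± 40.3 in Y641F, 727.1 ± 14.9 in A677G and 690.6 ± 1.3 in H689A/F667I. All 3 A677G sums (723.3, 743.5 and 714.5) were above the highest WT sum of 695.4, and Y641F ran from 656.0 in replicate 1 to 733.5 in replicate 3. Without replicate 1 the Y641F mean was 723.8 ± 13.7 (SD, n = 2). The median over members of the log2 deviation from the WT mean was 0.10, 0.12 and 0.08 in the A677G samples, 0.00, 0.05 and 0.10 in the Y641F samples and 0.00, 0.01 and 0.02 in the H689A/F667I samples. The WT samples themselves were at 0.01, -0.03 and 0.03, and the SD between replicates of this median was 0.0308. Since the members are low in GC, the fit was repeated with each sample's GC trend removed, which left medians of 0.08 for A677G and 0.00 for Y641F against WT. In bulk RNA, less RNA per cell and fewer cells with the RNA cannot be told apart.

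**Figure D4:**
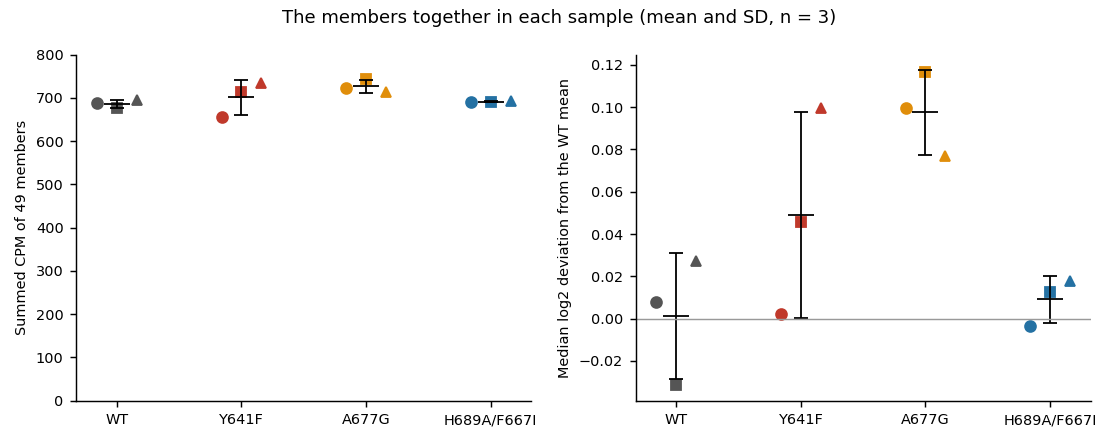
Summed CPM of the 49 members (left) and the median over members of the log2 deviation from the WT mean (right) in each sample, with mean and SD (n = 3) in black; symbols mark replicates 1, 2 and 3 as circle, square and triangle. A677G has the highest mean in both panels, and Y641F replicate 1 has the lowest sum at 656.0.

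By location group, the first group had no member past the threshold in any comparison, by edgeR's quasi-likelihood test. An unadjusted p under 0.05 was reached by 0 of its 5 members. Of all tested genes, 16.4% passed in at least 1 comparison, and 6.91% to 23.8% by comparison had an unadjusted p under 0.05. The second group held ZNF793, ZNF260, ZNF607 and ZNF382. Its median log2 fold change against WT was 0.06 in Y641F, 0.11 in A677G and 0.00 in H689A/F667I. The third group held ZNF155, and its medians were 0.01, 0.06 and 0.02. Whether the groups differ was not tested.

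The table held 10 other tested genes between the first and the last member of a group, all in the second. Of these, 7 bear a zinc finger name, of which 2 (ZNF529-AS1 and ZNF790-AS1) are antisense RNAs. In A677G, ZFP30 was higher (log2 fold change 0.20, adjusted p = 0.0455), and in the GOF mean against H689A/F667I, ZFP14 was higher (0.37, adjusted p = 0.0163). The other 3 are long noncoding RNAs, and 1 of them, LINC00665, was higher in A677G than in WT (0.73, adjusted p = 0.00285) and in the GOF mean against H689A/F667I (0.54, adjusted p = 0.0110). Over all tested genes, 2.07% were higher in A677G and 3.81% in the GOF mean. None of the 10 passed in Y641F or H689A/F667I against WT by the quasi-likelihood test, where LINC00665 was at 0.50 (adjusted p = 0.0613) and 0.08 (adjusted p = 0.939). Of all tested genes, 2.09% were higher and 5.59% lower in Y641F, and 0.14% and 0.161% in H689A/F667I. With 10 genes, shares this small leave few or no calls to be seen.

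Some members are divergent neighbours by the starts of the RefSeq table. In 5 pairs, all of the second group, a minus-strand and a plus-strand member had overlapping windows there, with starts 21 to 327 bases apart. The annotated gene spans do not bear out all 5 pairs. In GENCODE v44 the span of ZNF567 begins at base 36687612, while that of ZNF461 ends at 36666853. ZNF146 (chr19:36214602-36238771) lies within the span of ZNF565 (chr19:36182276-36246257). ZNF382 is paired with ZNF529, whose start is 55 bases away. In the GOF mean against H689A/F667I, ZNF529 was at 0.12 (adjusted p = 0.216) where ZNF382 was at 0.45. ZNF529 itself stood at 21.4, 22.1 and 21.0 CPM in WT, at 21.5, 24.2 and 24.4 in Y641F, at 24.3, 24.4 and 24.4 in A677G and at 21.5, 21.7 and 22.8 in H689A/F667I. ZNF829 is paired with ZNF568, whose mouse counterpart silences a placental Igf2 transcript, and in Y641F against WT they were at 0.22 and 0.00. ZNF146, the highest member by level, is paired with ZNF565 at 2.24 CPM, and in A677G against WT they were at 0.06 and -0.21. The other pairs are ZNF461 with ZNF567 and ZNF569 with ZNF570, and no gene of these 4 passed in a comparison.

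Paralogs that share sequence can split reads, and 4 pairs of members were over 80% identical in protein, as a share of the shorter protein. The proteins aligned were translated from the annotated transcripts. Over the longer protein the share is smaller where lengths differ: 292 and 412 residues for ZNF146 and ZNF260, 399 and 571 for ZNF302 and ZNF181, and 538 and 474 for ZNF155 and ZNF230. ZNF585A and ZNF585B were 94.5% identical, and 14.4% and 19.9% of the 50-base windows of their transcripts occurred in another gene of the table, mostly in each other. Their levels, 8.54 and 12.2 CPM, are uncertain for that reason, and neither passed in a comparison. ZNF302 and ZNF181 were 90.5% identical and shared 9.27% and 4.53% of such windows. ZNF146 and ZNF260 were 81.2% identical, with 0% and 0.115% of windows found elsewhere. ZNF155 and ZNF230 were 80.2% identical, and 3.51% of the windows of ZNF155 occurred elsewhere, most often in ZNF284. In the GOF mean against H689A/F667I, where ZNF155 was at -0.37, ZNF230 was at 0.23 (adjusted p = 0.211) and stood at 5.11, 5.81 and 5.15 CPM in H689A/F667I.

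Corepressors of KRAB proteins and other genes of that pathway had log2 fold changes against WT that ran from -0.15 to 0.14. Of 34 genes listed, 33 were tested and H3-3A was not analysed here. TRIM28 had a mean of 671 CPM over the 12 samples, with log2 fold changes against WT of -0.08 in Y641F, -0.09 in A677G and -0.10 in H689A/F667I (adjusted p = 0.198, 0.140 and 0.416). By the same quasi-likelihood test its unadjusted p was 0.0316, 0.0195 and 0.0136, and the WT samples are shared. SETDB1 was at 0.02, 0.02 and -0.03, and ZNF274, a zinc finger protein that directs SETDB1 to the ends of zinc finger genes, at 0.03, 0.01 and 0.02, with no adjusted p under 0.8. RBBP7, a histone chaperone shared by PRC2 and the NuRD complex, was the 1 gene past the threshold against WT: it was lower in Y641F (-0.10, SE 0.0333, adjusted p = 0.0484) and in A677G (-0.12, SE 0.0333, adjusted p = 0.0151). ATF7IP, a cofactor of SETDB1, was higher in the GOF mean than in H689A/F667I (0.16, adjusted p = 0.0126), as was TRIM24 (0.13, adjusted p = 0.0101). No gene of the list passed in H689A/F667I against WT or between the GOF lines. By edgeR, 3 and 1 had an unadjusted p under 0.05 there (9.09% and 3.03%), beside 8.3% and 6.91% of all tested genes. In Y641F, A677G and the GOF mean 6, 5 and 5 had one (18.2%, 15.2% and 15.2%), beside 19.2%, 20.4% and 23.8%. Past the threshold, 3.03% of the 33 were lower in Y641F and in A677G, beside 5.59% and 6.48% of all tested genes. In the GOF mean 6.06% were higher, beside 3.81%.

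Beside the members stand 162 other zinc finger genes of chromosome 19, of which 4 are not protein coding in the annotation. Their median log2 fold change against WT was 0.05 in Y641F, 0.10 in A677G and 0.01 in H689A/F667I, against 0.02, 0.10 and 0.01 for the members. Of the 162, 11 were higher and 1 was lower in Y641F, and 15 were higher and 1 was lower in A677G. These shares of higher genes, 6.79% and 9.26%, stand beside 2.04% and 4.08% of the members and 2.09% and 2.07% of all tested genes. The share of lower genes was 0.617% in each, beside 5.59% and 6.48% of all tested genes. The differences were not tested. In the GOF mean against H689A/F667I, 22 were higher (13.6%) and 5 were lower (3.09%). The shares were 3.81% and 8.75% over all tested genes and 4.08% and 2.04% over the members. In H689A/F667I against WT and between the GOF lines 0 passed by edgeR. An unadjusted p under 0.05 was reached there by 18 and 12 (11.1% and 7.41%), beside 8.3% and 6.91% of all tested genes.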

How the data were processed

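The authors deposited a table of raw counts, whole numbers per gene symbol for the 12 samples, with no normalization. Per the methods and the submitters' processing notes, poly(A) RNA libraries (TruSeq Stranded mRNA) were sequenced, reads were trimmed with Trim Galore 0.6.5 and aligned to GRCh38 with STAR 2.7.9a, and transcripts were quantified with Salmon 1.2.0 on a Gencode transcriptome; edgeR 3.16 is also named. How the estimates became whole counts per symbol, the filter on genes, and the strand setting are not given in the sources used here. Reads from near-identical paralogs are shared out by estimation, which makes their counts uncertain. Counts totalled 32137700 to 44562413 per sample. Members had 24 to 9737 counts a sample.

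The 175 genes at 0 in every sample of a line were left out, and all 14263 others passed edgeR's filterByExpr. In R 4.3.3 with edgeR 4.0.16, TMM factors, glmQLFit and glmQLFTest were run on all 12 samples with 1 coefficient per line, in place of the exact test the study names, which was an alternative. Standard errors are the log2 fold change over the square root of F, and 95% intervals use the t distribution with the moderated degrees of freedom. Log2 CPM used a prior count of 2. The common biological coefficient of variation was 0.0471. The procedure was tested on simulated counts with known changes in 200 genes.

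Alternatives were edgeR's exact test, DESeq2 1.42.0, limma 3.58.1 (voom with quality weights), upper-quartile factors, library totals, no filter, a minimum of 10 counts in all samples, the compared lines alone, the replicate block, removal of GC and length trends (the GC trend also with the block), and each sample left out in turn. Symbols were matched to GENCODE v44 on GRCh38 for positions, transcripts and proteins (13272 by name and 810 by a RefSeq synonym, 356 without a match); the v23 annotation of the authors was not used here, so lengths and GC may differ from theirs. No pair of replicates agreed within sampling noise.

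The members, gene lists and tests were chosen with earlier results of these data known, although the rule for the members uses symbols only. Named with values in every sample were members past the threshold in a comparison. The 3 highest and 3 lowest by level per kb and paralog pairs over 80% identical across the shorter protein were also named. So were genes of the corepressor pathway past the threshold with TRIM28, SETDB1 and ZNF274, and EZH2. ZNF223, ZNF829, ZNF112, ZNF540 and ZNF566 were chosen after their values were seen, and ZNF529 is given as the divergent neighbour of ZNF382. The result of 1 marker gene is not reported here.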

Additional observations from a re-analysis of the deposited data

Results flagged for a closer look

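Members of the group, 3 in number, differed between the GOF lines and the LOF line by a direct test of that difference, the mean of Y641F and A677G against H689A/F667I (edgeR's quasi-likelihood test, adjusted p under 0.05 over all genes tested). ZNF382 was higher in the GOF lines by 0.4451 on the log2 scale, higher in 6 of 6 GOF samples than in any H689A/F667I sample. ZNF607 was higher by 0.3324, also in 6 of 6 samples. ZNF155 was at -0.3712, with overlapping samples. The call of ZNF155 was lost under 2 of 11 alternatives and in 7 of 12 fits with a sample left out. Over all genes tested, 8.75% were lower and 3.81% were higher in this comparison, beside 1 and 2 of the 49 members. Errors and adjusted p-values are given above.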

How the results depend on the processing

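By edgeR's exact test 4 members were higher in A677G than in WT and 1 was lower in Y641F. The latter was also 1 with the GC trend removed together with the replicate block. In the GOF mean against H689A/F667I, 0 members were lower with library totals and with limma. With a sample left out in turn, the count higher in A677G ran from 1 to 4, that higher in Y641F from 1 to 2 and lower from 0 to 1. In the GOF mean against H689A/F667I it ran from 1 to 3 for higher and from 0 to 1 for lower, the latter being 0 in 7 of 12 fits, and in Y641F against A677G from 0 to 1 for lower. The median over members ran from 0.0028 to 0.0593 for Y641F against WT and from -0.0792 to -0.017 for Y641F against A677G. For the GOF mean against H689A/F667I it ran from 0.0321 to 0.0899, and for H689A/F667I against WT from 0.0018 to 0.0186. The cause of these shifts was not tested, beyond the sample left out. With all samples kept, the calls of ZNF793 and ZNF607 against WT held under 12 of 12 alternatives, and those of ZNF607 and ZNF382 in the GOF mean under 11 of 11.

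Replicate numbers did not pair the samples: same-numbered samples correlated at -0.06 to 0.05 in 18 pairs, and 2 of 12 samples correlated best with their own number. With replicate number as a block, the counts of members were 0 lower and 1 higher in Y641F, 0 and 2 in A677G, 0 and 0 in H689A/F667I, 0 and 0 between the GOF lines, and 1 and 2 in the GOF mean against H689A/F667I. The exact test gave no value for the GOF mean. With 3 samples a line the median SE of a member was 0.119 in Y641F against WT, against 0.0704 over all genes tested, and their median log2 CPM was 2.90 against 4.62.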
